A study of Homo sapiens with 18 samples.

Results

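The D-type cyclins, their kinases and the CDK inhibitors detected here were 10 genes of the 60623 in the deposited table: CCND1, CCND2, CCND3, CDK4, CDK6, CDKN1A, CDKN1B, CDKN1C, CDKN2C and CDKN2D. They were chosen from readouts of the same libraries, by symbol and because CCND1 was higher in the Siglec-14 line while proliferation genes tended to be lower there. Comparisons of that line with the others are therefore given for these genes as descriptions, with no test. All 10 genes passed the filter on low counts, which left 17851 genes. The cells were 3 versions of THP-1, an established line of human monocytic leukaemia, whose RNA was sequenced. The S14 line was labelled as carrying human Siglec-14, the S5 line human Siglec-5 and the EV line an empty vector. Before any other treatment, all lines were exposed for 24 h to PMA, a phorbol ester, at 100 nM, which turns THP-1 into adherent macrophage-like cells. The cells were then kept either for 48 h in 50% conditioned medium (CM in figures) or in mock medium. Conditioned medium came from SW620 colorectal cancer cells, also an established line. Each of the 6 groups held 3 libraries. No source used here gives the promoter of the constructs or says whether a line is 1 clone. Nor do the labels tell whether replicates of a group came from separate cultures; p-values thus measure the spread between these libraries, which may be technical.

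D-type cyclins bind CDK4 and CDK6, and the complex phosphorylates the retinoblastoma protein, which frees E2F factors to start DNA replication genes. The INK4 inhibitors, among them p18 from CDKN2C and p19 from CDKN2D, bind CDK4 and CDK6 and keep the cyclins off. The Cip/Kip inhibitors p21 (CDKN1A), p27 (CDKN1B) and p57 (CDKN1C) act on the cyclin E and cyclin A kinases, and p21 and p27 can also help D-type cyclins assemble with their kinases. PMA takes myeloid leukaemia lines out of the cell cycle, and p21 is known to accumulate during that differentiation.

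Library totals were 15.0 M to 26.05 M counts. SIGLEC14 averaged 663 CPM (counts per 1 M, after TMM scaling) in S14 cells in conditioned medium and 779 CPM in mock medium, against 36.4 and 38.6 CPM in the S5 groups and 20.02 and 17.7 CPM in the EV groups. SIGLEC5 did not mark the S5 line: it averaged 0.748 CPM in S5 and 0.522 CPM in EV in conditioned medium, and 0.614 CPM in S5 and 0.902 CPM in EV in mock medium, so "S5" below means the libraries labelled so. A second row under that symbol had at most 8 counts in any library. All 10 macrophage markers were detected, with CD68 at only 11 to 31 counts a library. Some varied widely between libraries: LYZ had 1321 to 65425 counts, CD14 2887 to 24809 and CD163 828 to 7254. SPI1 had 3654 to 7742. A sum over the markers hides such differences and does not show that they were alike between lines. The summed level of the 10 markers in conditioned medium was 7036 to 7266 CPM in S14, 5779 to 6288 CPM in S5 and 6353 to 6414 CPM in EV. In mock medium it was 7157 to 8968 CPM in S14, 5162 to 7544 CPM in S5 and 5921 to 7008 CPM in EV; its part in the line differences given here was not tested. None of 11 colorectal epithelial markers passed the filter; EPCAM, KRT20, CEACAM5 and KRT19 had 0 counts in every library. Replicate 3 stood apart in every group: mitochondrially encoded genes held 4.26% of its counts on average (n = 6), against 2.77% in replicates 1 and 2 (n = 12). The tested responses, the medians of the lists of other genes and some line differences are given with and without it.

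The promoters of CDKN1A and CDKN2C are shown because these inhibitors lay on opposite sides of the other lines in S14 cells. Each run is the 250 bases before the gene's start in RefSeq on GRCh38.p14, on the plus strand, for CDKN1A at chr6:36678464-36678713 and for CDKN2C at chr1:50960495-50960744. Capitals mark the GC box core GGGCGG, on either strand.
CDKN1A: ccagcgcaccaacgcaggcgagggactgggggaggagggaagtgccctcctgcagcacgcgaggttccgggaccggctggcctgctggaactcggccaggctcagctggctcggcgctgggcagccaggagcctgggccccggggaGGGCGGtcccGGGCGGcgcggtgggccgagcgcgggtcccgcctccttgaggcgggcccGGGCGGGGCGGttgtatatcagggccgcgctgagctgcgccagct
CDKN2C: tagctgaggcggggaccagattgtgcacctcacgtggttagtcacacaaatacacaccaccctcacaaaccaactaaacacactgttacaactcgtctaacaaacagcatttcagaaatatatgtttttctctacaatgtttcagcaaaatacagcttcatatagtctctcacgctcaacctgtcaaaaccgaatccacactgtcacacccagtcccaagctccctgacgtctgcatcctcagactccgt
The CDKN1A window held 4 GC boxes, the last pair sharing a base, and 76.4% G and C. The CDKN2C window held none and 45.6% G and C. Neither held the TATA box core TATAAA, the AP-1 site TGANTCA, the CRE TGACGTCA or the E2F site TTTNGCGC, searched on both strands. Of 35116 promoters of this length, 42.64% held GGGCGG, 10.72% TATAAA, 6.57% TGANTCA, 1.65% TGACGTCA and 1.51% TTTNGCGC. A promoter was found for 7 of the 10 genes. GGGCGG also occurred in those of CCND3, CDK4, CDK6, CDKN1B and CDKN2D. Any link of the motif to the levels was not tested.

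CCND1 encodes cyclin D1 and lies at chr11:69641087-69654474 on the plus strand (GRCh38, GENCODE release 29). In conditioned medium it stood at 335, 314 and 479 CPM in S14 replicates 1, 2 and 3, at 113, 93.6 and 42.6 CPM in S5 and at 83.7, 82.3 and 95 CPM in EV. In mock medium the S14 libraries had 267, 275 and 479 CPM, the S5 libraries 75.4, 70.8 and 39.2 CPM and the EV libraries 58.6, 68.6 and 85.1 CPM. Every S14 library was above every other library, and replicate 3 was the highest S14 library but the lowest S5 library in both media. Against EV, the log2 fold change in S14 was 2.11 ± 0.34 (SE, n = 3 a group) in conditioned medium and 2.27 ± 0.35 in mock medium. Set against S5 it was 2.18 ± 0.34 in conditioned medium and 2.46 ± 0.35 in mock medium, and with replicates 1 and 2 alone 1.62 and 1.90. In these bulk libraries fewer cells of a type and less RNA per cell cannot be told apart. S14 differed from the other lines at many genes. In conditioned medium edgeR called 11.1% of all genes against EV and 13.8% against S5 (adjusted p under 0.05). In mock medium it called 20.0% against EV and 21.5% against S5. The share of all genes whose libraries did not overlap was not computed. Nothing is therefore read from such gaps for this gene or those below. LTO1 overlaps 10.29% of the exonic bases of CCND1 on the opposite strand; it had 247 to 611 counts a library, against 899 to 11352 for CCND1.

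CCND2, the gene of cyclin D2 at chr12:4273772-4305350, was also higher in S14 cells, at a much lower level. Its S14 libraries had 3.69, 4.62 and 3.25 CPM in conditioned medium, against 1.92, 1.21 and 0.658 CPM in S5 and 1.60, 1.87 and 0.765 CPM in EV. S14 cells in mock medium had 5.81, 6.44 and 2.63 CPM, against 1.16, 1.53 and 1.05 CPM in S5 and 1.14, 1.16 and 0.874 CPM in EV. The S14 libraries did not overlap those of the other lines, but the values rest on 17 to 125 counts a library. Log2 fold changes in S14 against EV were 1.45 ± 0.41 in conditioned medium and 2.22 ± 0.42 in mock medium. AC008012.1, which shares 13.82% of the exonic bases of CCND2 on the same strand, had 0 counts in every library.

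CCND3, which encodes cyclin D3, did not share this pattern. Its S14 libraries had 106, 101 and 214 CPM in conditioned medium, against 92.6, 106 and 184 CPM in S5 and 101, 91.7 and 153 CPM in EV. The lines overlapped, as they did in mock medium, and replicate 3 was the highest library in all 6 groups. S14 differed from EV by 0.28 ± 0.34 log2 in conditioned medium and 0.20 ± 0.34 in mock medium.

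Per transcript length, the makeup of D-type cyclin mRNA differed between the lines. CCND1 made up 76.5 ± 3.36% of the summed TPM (transcripts per 1 M, which corrects for length) of the 3 cyclins in S14 cells in conditioned medium, against 44.0 ± 19.7% in S5 and 47.8 ± 4.67% in EV (SD, n = 3 each). In mock medium its share was 72.5 ± 2.01% in S14, 35.0 ± 14.1% in S5 and 39.4 ± 3.09% in EV. CCND3 held most of the rest, and CCND2 averaged under 1% in every group. The summed level of the 3 genes averaged 293 TPM in S14, 134 TPM in S5 and 132 TPM in EV in conditioned medium. In mock medium it averaged 292 TPM in S14, 131 TPM in S5 and 132 TPM in EV.

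**Figure D1:**
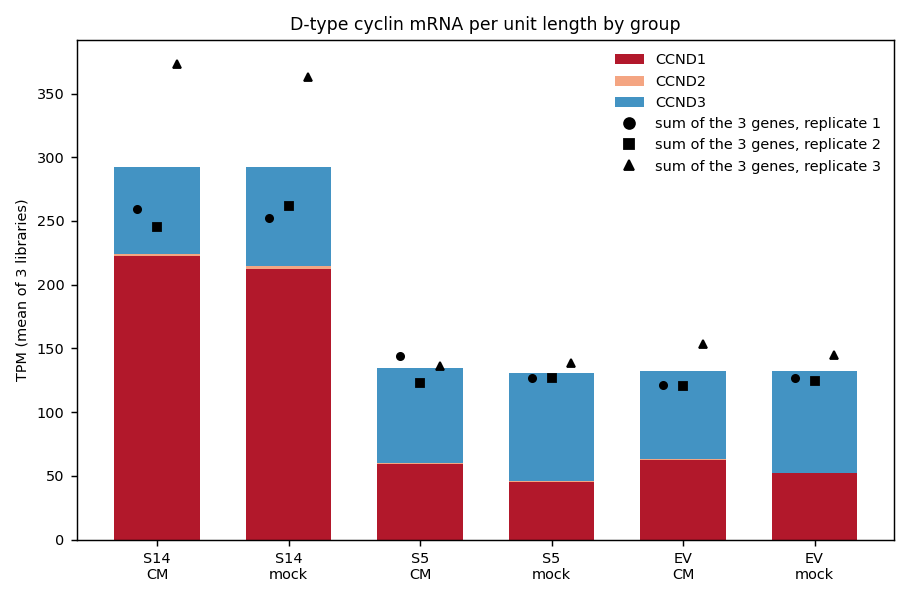
Stacked bars give the mean TPM of CCND1, CCND2 and CCND3 in each of 6 groups (3 libraries each); black symbols give the summed TPM of each library. The bars of both S14 groups reach 293 and 292 TPM, against 131 to 134 TPM in the other groups, and the added height is CCND1.

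CDKN1A, the p21 gene at chr6:36676460-36687339 and a classical target of p53, had the highest level per length of the 10 genes in every group. S14 libraries in conditioned medium had 1172, 1034 and 963 CPM, against 541, 559 and 308 CPM in S5 and 491, 438 and 642 CPM in EV. Mock-medium values were 949, 988 and 1099 CPM in S14, 633, 553 and 396 CPM in S5 and 509, 512 and 673 CPM in EV. No S14 library overlapped the other lines, whose highest value was 673 CPM. Log2 fold changes in S14 were 1.01 ± 0.23 against EV and 1.17 ± 0.23 against S5 in conditioned medium, and 0.84 ± 0.23 and 0.94 ± 0.23 in mock medium. The ratio of summed D-type cyclin TPM to CDKN1A TPM averaged 0.302 ± 0.113 in S14, 0.277 ± 0.108 in S5 and 0.222 ± 0.00698 in EV in conditioned medium (SD, n = 3).

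CDKN1B, which encodes p27, showed no consistent order of S14 against the other lines with all replicates. In conditioned medium it had 25.4, 31.9 and 13.5 CPM in S14, 21.1, 20.1 and 20.05 CPM in S5 and 17.8, 16.5 and 19.0 CPM in EV. The S14 libraries lay on both sides of the others, with replicate 3 the lowest, also in mock medium. In S14 against EV its log2 fold change was 0.41 ± 0.25 in conditioned medium and 0.12 ± 0.25 in mock medium. On replicates 1 and 2 alone it was 0.71 in conditioned medium and 0.40 in mock medium. CDKN1C, the p57 gene, was near the detection limit: it had at most 27 counts in a library and 0 counts in S5 replicate 3 in conditioned medium, where 3 counts would be 0.116 CPM. Its levels were 1.25, 1.15 and 0.801 CPM in S14 and 0.389, 0.303 and 0.362 CPM in EV in conditioned medium, which did not overlap, while those of S5 were 0.823, 1.27 and 0 CPM. The log2 fold change of CDKN1C in S14 against EV was 1.57 ± 0.83 in conditioned medium and 1.45 ± 0.82 in mock medium.

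CDKN2C, which encodes the INK4 inhibitor p18 and lies at chr1:50960745-50974633, went the other way. In conditioned medium it had 78.4, 79.4 and 122 CPM in S14, against 135, 167 and 269 CPM in S5 and 171, 170 and 186 CPM in EV. In mock medium S14 had 49.0, 51.4 and 100.2 CPM, S5 137, 124 and 234 CPM and EV 157, 147 and 179 CPM. The highest S14 library, at 121.5 CPM, lay just under the lowest of the other lines, at 123.6 CPM. Log2 fold changes in S14 were -0.91 ± 0.31 against EV and -1.03 ± 0.31 against S5 in conditioned medium, and -1.27 ± 0.31 and -1.30 ± 0.31 in mock medium. The ratio of CDKN2C TPM to the summed TPM of CDK4 and CDK6 averaged 0.449 ± 0.0387 in S14, 0.969 ± 0.162 in S5 and 0.963 ± 0.0382 in EV in conditioned medium. In mock medium that ratio was 0.314 ± 0.0950 in S14, 0.824 ± 0.0658 in S5 and 0.883 ± 0.0522 in EV.

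CDKN2D, the p19 gene, was expressed at 0.732 to 8.62 CPM and depended more on the replicate than on the line. S14 libraries had 3.10, 3.41 and 5.57 CPM in conditioned medium and 0.732, 1.24 and 4.72 CPM in mock medium, against 3.37, 3.84 and 6.52 CPM and 2.62, 2.18 and 6.34 CPM in EV. S5 libraries had 2.52, 2.33 and 7.32 CPM in conditioned medium and 1.43, 1.88 and 8.62 CPM in mock medium. The log2 fold change of CDKN2D in S14 against EV was -0.18 ± 0.73 in conditioned medium and -0.74 ± 0.75 in mock medium. On replicates 1 and 2 alone it was -0.17 in conditioned medium and -1.29 in mock medium. The remaining INK4 genes, CDKN2A and CDKN2B, had 0 counts in every library of every line.

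For the kinases themselves, the estimated differences between the lines were smaller than their SE with all replicates. That does not show that the levels were alike. CDK4 had 140, 130 and 220 CPM in S14, 107, 128 and 203 CPM in S5 and 120, 113 and 159 CPM in EV in conditioned medium. Its log2 fold change in S14 against EV was 0.32 ± 0.38 in conditioned medium and 0.27 ± 0.38 in mock medium, and TSPAN31 shares 43.21% of its exonic bases on the opposite strand. CDK6 had 205, 227 and 131 CPM in S14, 245, 205 and 153 CPM in S5 and 232, 252 and 192 CPM in EV in conditioned medium. S14 differed from EV in CDK6 by -0.27 ± 0.32 log2 in conditioned medium and 0.04 ± 0.32 in mock medium. With all replicates the lines overlapped for both kinases. On replicates 1 and 2 alone, CDK4 differed between S14 and EV by 0.17 log2 in conditioned medium and 0.16 in mock medium. CDK6 then differed by -0.20 in conditioned medium and 0.21 in mock medium. Against S5 in mock medium, CDK4 differed by 0.25 log2 on replicates 1 and 2 alone. S14 replicates 1 and 2 differed in CDK6 from the same-numbered S5 libraries in mock medium by 0.47 and 0.09 log2.

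**Figure D2:**
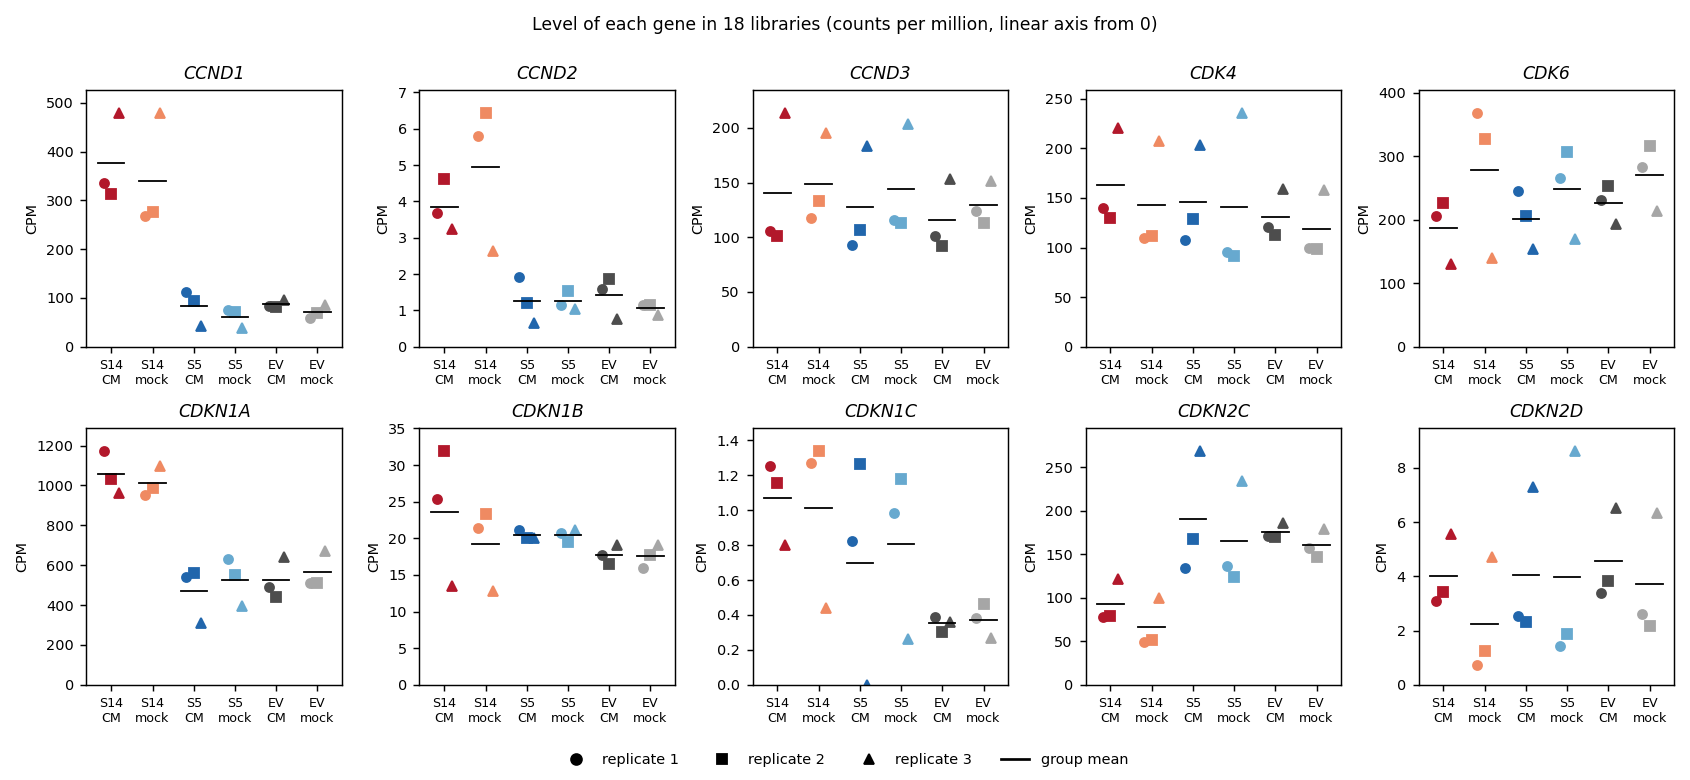
Each panel gives 1 gene in CPM on a linear axis from 0; symbols are libraries (circle, square and triangle for replicates 1, 2 and 3), lines are group means. S14 libraries stand above all others for CCND1, CCND2 and CDKN1A and below all others for CDKN2C, and the triangles of replicate 3 lie above replicates 1 and 2 in all 6 groups for CCND3, CDK4, CDKN2C and CDKN2D. The share of all genes whose S14 libraries stand apart in this way was not computed.

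**Figure D3:**
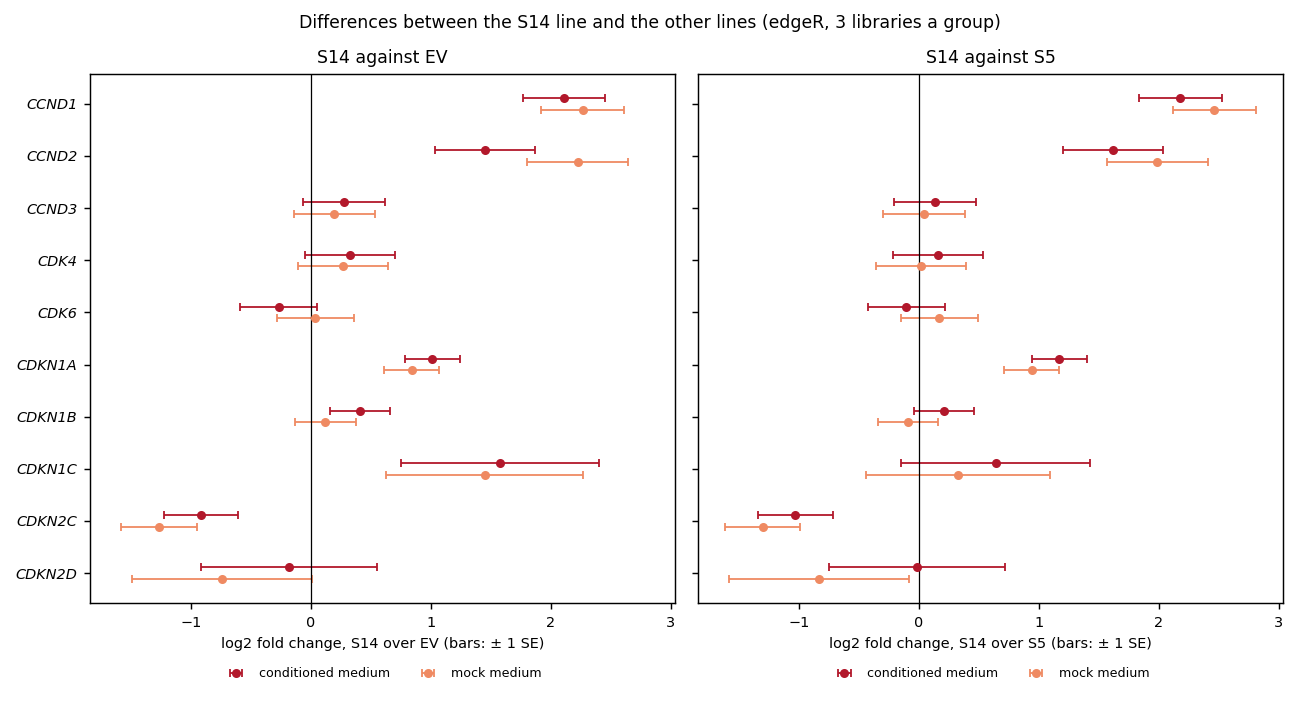
Points give the log2 fold change of each gene in S14 over EV (left) and over S5 (right), in conditioned and mock medium; bars are 1 SE, with 3 libraries a group. CCND1 lies between 2.11 and 2.46 in the 4 comparisons, and CDKN2C is the gene whose 4 estimates all lie below -0.9.

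With each of the 6 libraries of a comparison left out in turn, the log2 fold change of CCND1 in S14 against EV ran from 1.90 to 2.23 in conditioned medium and from 1.94 to 2.45 in mock medium. That of CCND2 ran from 1.17 to 1.71 in conditioned medium and from 1.99 to 2.53 in mock medium, and that of CDKN1A from 0.91 to 1.20 and from 0.78 to 1.01. CDKN2C ran from -1.16 to -0.81 in conditioned medium and from -1.68 to -1.06 in mock medium. Against S5 its widest range was in conditioned medium, from -1.27 to -0.68. The EV and S5 comparisons share the S14 libraries.

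The response to conditioned medium was not used to choose the genes and was tested. None of the 10 genes changed past the threshold in any line: edgeR called 0 of them in S14 (0.0504% of all genes), 0 in S5 (0.00560%) and 0 in EV (0.00560%). None reached an unadjusted p under 0.05 either, beside 16.7% of all genes in S14, 1.94% in S5 and 1.50% in EV. DESeq2 called 0 of them too, beside 5.02% of all genes in S14, 0.0168% in S5 and 0.0224% in EV. CCND1 differed between conditioned and mock medium by 0.14 log2 in S14 (95% confidence interval -0.56 to 0.84, adjusted p = 0.872, edgeR), 0.43 in S5 (-0.28 to 1.13, adjusted p = 1) and 0.30 in EV (-0.41 to 1.00, adjusted p = 1). CDKN1A differed by 0.06 in S14 (-0.42 to 0.55), -0.17 in S5 (-0.65 to 0.32) and -0.11 in EV (-0.59 to 0.37). These intervals leave room for changes of up to the sizes they span and do not show that the levels were alike.

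CDKN2C and CDKN2D had positive estimates in S14, where the mean level of each in mock medium was the lowest of the 6 groups. For CDKN2D those mock-medium libraries ran from 0.732 to 4.72 CPM, with replicate 3 the highest. The log2 difference of CDKN2C in S14 was 0.48 (-0.18 to 1.14, adjusted p = 0.479, edgeR), with conditioned medium above mock medium in all 3 same-numbered pairs. For CDKN2D it was 0.86 ± 0.75 (-0.74 to 2.45, adjusted p = 0.623), and with the replicate number as a block it rose by 1.13 log2 (adjusted p = 0.0433, edgeR), as the only one of the 10 genes, beside 11.0% of all genes. Blocked, CDKN2C stood at 0.52 (adjusted p = 0.0554).

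CDK6 was lower in conditioned than in mock medium in 9 of 9 same-numbered pairs over the 3 lines. Of those pairs CCND1, CDK4, CDKN2C and CDKN2D were each higher in conditioned medium in 8, CCND3 was lower in 7, CDKN1A was lower and CDKN1B higher in 6, and CCND2 and CDKN1C were lower in 5. How many of all genes went the same way in every such pair was not computed, and nothing is read from these counts. CDK6 in mock medium had 368, 328 and 139 CPM in S14, 266, 307 and 170 CPM in S5 and 283, 316 and 214 CPM in EV, so each conditioned-medium value given above is below its same-numbered partner. Within a line the difference was -0.57 log2 in S14 (-1.25 to 0.11, adjusted p = 0.403, edgeR), -0.30 in S5 (-0.98 to 0.38) and -0.26 in EV (-0.95 to 0.42). Leaving out S14 replicate 3 in mock medium, the lowest of them, moved the S14 value to -0.89 (adjusted p = 0.0491, edgeR). The share of all genes called in that fit is not given, so nothing is read from this call. Averaged over the 3 lines, a contrast chosen after these values were seen, CDK6 differed by -0.38 ± 0.19 log2 (adjusted p = 0.371; 0.235% of all genes called). With the replicate block that average was -0.35 ± 0.09 (adjusted p = 0.0398), and CDK6 was the only one of the 10 genes called, beside 6.77% of all genes.

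**Figure D4:**
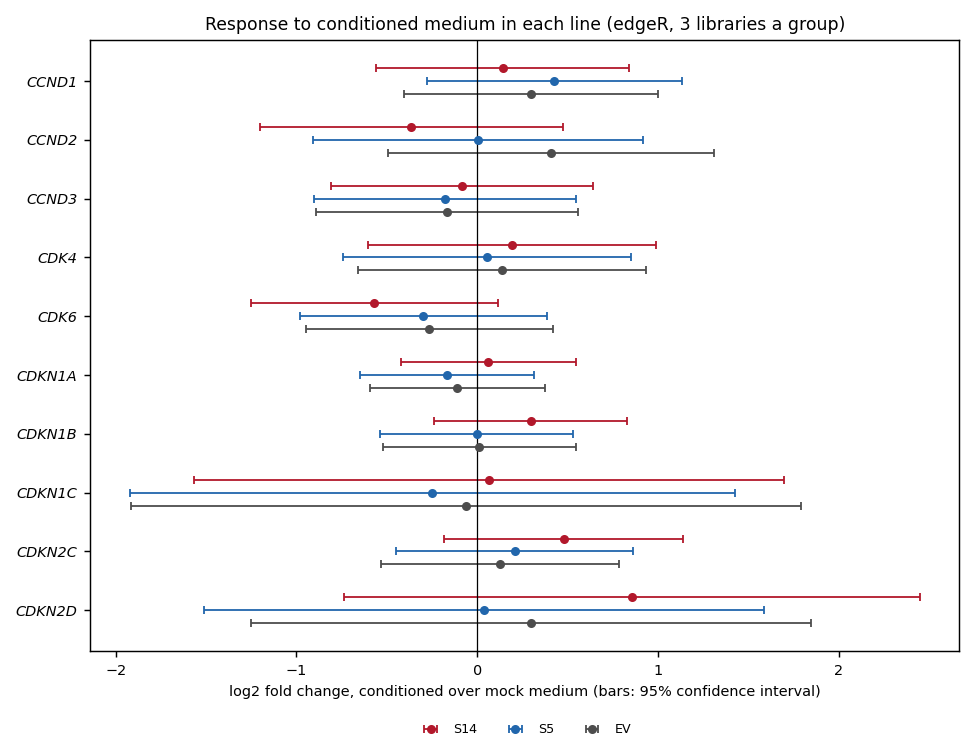
Points give the log2 fold change of conditioned over mock medium in the S14, S5 and EV lines with 95% confidence intervals from edgeR, 3 libraries a group. Every interval includes 0; the estimates of CDK6 lie left of 0 in all 3 lines.

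The differences in response between the lines were tested as interactions. No gene of the 10 passed for S14 minus S5, S14 minus EV or S5 minus EV (0% of all genes each in edgeR). At an unadjusted p under 0.05 there was again none, beside 3.52% of all genes for S14 minus S5, 4.55% for S14 minus EV and 0.269% for S5 minus EV. DESeq2 called none, beside 0.0224% of all genes for S14 minus S5, 0.0224% for S14 minus EV and 0% for S5 minus EV. The difference in response of CCND1 between S14 and EV was -0.16 log2 (-1.15 to 0.84), and that of CDKN2C was 0.35 (-0.58 to 1.28).

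Replicate 3 weighed on the tested comparisons. Fitted on replicates 1 and 2 alone, the response to conditioned medium passed the threshold in edgeR for CCND2, CCND3, CDK4, CDK6, CDKN1B, CDKN2C and CDKN2D in S14 (45.2% of all genes), for CCND1, CDK4 and CDK6 in S5 (7.06%) and for CCND1 in EV (3.17%). In S14, CDK6 then stood at -0.74 log2 (adjusted p = 1.2e-06), CDKN2C at 0.60 (adjusted p = 1.43e-05) and CDKN2D at 1.68 (adjusted p = 4.83e-05). CCND1 then rose by 0.48 log2 in S5 (adjusted p = 0.00283) and by 0.36 in EV (adjusted p = 0.0403), and stood at 0.20 in S14 (adjusted p = 0.0826). The difference in response passed for CCND2, CDK6, CDKN2C and CDKN2D between S14 and EV (24.3% of all genes) and for CDKN2C and CDKN2D between S14 and S5 (21.9%). Replicate 3 lay above replicates 1 and 2 in all 6 groups for CCND3, CDK4, CDKN2C and CDKN2D and below both in all 6 for CCND2 and CDK6. The ratio of replicate 3 to the mean of the other two ran from 1.71 to 5.22 for CDKN2D and from 0.401 to 0.795 for CDK6. The refits hold 2 libraries a group, which lie closer to each other than to replicate 3 in every group. Their p-values measure that smaller spread, which may be technical. The part of replicate 3 in each result was not tested beyond these refits.

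**Figure D5:**
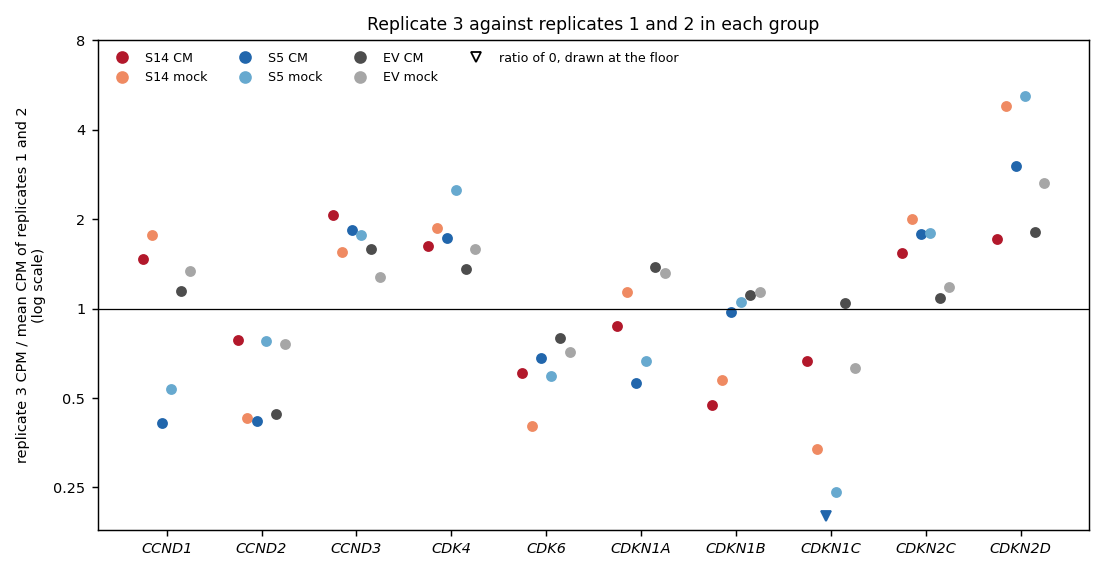
Points give replicate 3 CPM divided by the mean CPM of replicates 1 and 2 in the same group, on a log scale, by gene and group; a triangle marks the ratio of 0 of CDKN1C in S5 in conditioned medium. CCND3, CDK4, CDKN2C and CDKN2D lie above 1 and CCND2 and CDK6 below 1 in all 6 groups.

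The S5 and EV lines were compared in a contrast that the choice of genes did not use. No gene of the 10 passed in conditioned medium or in mock medium (edgeR, 0% of all genes in each), none had an unadjusted p under 0.05 (3.04% of all genes in conditioned medium and 2.30% in mock medium) and none was called by DESeq2 (0.0560% in conditioned medium and 0.0280% in mock medium). CCND1 differed between S5 and EV by -0.07 log2 in conditioned medium (-0.77 to 0.64) and -0.20 in mock medium (-0.90 to 0.51). CDKN1B libraries of S5 lay above all of EV in both media, with differences of 0.20 (-0.33 to 0.73) and 0.21 (-0.32 to 0.75). The share of all genes that separate these lines so was not computed, and nothing is read from this gap.

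Genes that work downstream of the kinases are described in S14 against EV without a test, as are the lists after them, since the 10 genes were chosen from that contrast. Of 22 cyclins, kinases, RB family and E2F genes, 19 had lower estimates in S14 in conditioned medium and 18 in mock medium. The list's median log2 fold change was -0.57 in conditioned medium and -0.81 in mock medium, and on replicates 1 and 2 alone -0.93 and -1.50, against -0.02 for all genes tested in each medium with all replicates. Unless said otherwise, the members named in each list had the smallest p-values in that contrast. CCNA1, the testis and myeloid cyclin A, was at 6.85 CPM in S14 and 0.743 CPM in EV in conditioned medium, and E2F5 was at 3.73 CPM in S14 and 1.27 CPM in EV. RB1, the retinoblastoma gene itself, was at 72.3 CPM in S14 and 101 CPM in EV in conditioned medium and at 88.7 CPM in S14 and 120 CPM in EV in mock medium. TFDP2, an E2F partner, was at 3.44 CPM in S14 and 7.67 CPM in EV in mock medium.

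All 20 proliferation genes had lower estimates in S14 than in EV in both media, with medians of -0.72 in conditioned medium and -1.14 in mock medium. Their levels moved with replicate 3: on replicates 1 and 2 alone the medians were -1.40 in conditioned medium and -2.70 in mock medium. In response to conditioned medium, all 20 had positive estimates in S14 (median 0.56) and in EV (median 0.19), and 18 had in S5 (median 0.18), with none called. With the replicate block, which called 11.0% of all genes in the S14 response, 3 of the 20 were called, all higher and named after their values were seen: TOP2A, PLK1 and CDC20. Of the 22 downstream genes it called 3, beside the same 11.0%: CCNA2, CCNB1 and CCNB2, cyclins of the later cycle, all higher.

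Of 18 p53 targets other than CDKN1A, 10 had higher and 8 lower estimates in S14 than in EV in conditioned medium, and 11 had higher and 7 lower in mock medium. The list's medians were 0.20 in conditioned medium and 0.16 in mock medium, and on replicates 1 and 2 alone 0.32 and 0.38. GDF15, a secreted stress cytokine, was at 1076 CPM in S14 and 21.7 CPM in EV in conditioned medium and 749 and 26.5 CPM in mock medium. PLK3 was at 183 CPM in S14 and 30.1 CPM in EV in conditioned medium and 195 and 26.3 CPM in mock medium. PHLDA3 was at 57.3 CPM in S14 and 13.4 CPM in EV in conditioned medium. SESN2 was at 68.8 CPM in S14 and 20.1 CPM in EV in conditioned medium, while SESN1 was at 61.6 CPM in S14 and 211 CPM in EV in mock medium. MDM2, named after its values were seen as the p53 target that limits p53, was at 71.6 CPM in S14 and 61.4 CPM in EV in conditioned medium (log2 fold change 0.22 ± 0.26). In response to conditioned medium none of the 18 was called in any line; in S14 the blocked fit called 4, BBC3, GADD45A and SESN2 higher and AEN lower, named after their values were seen, beside 11.0% of all genes.

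Of 16 genes for turnover and assembly of these proteins, 9 had higher and 7 lower estimates in S14 than in EV in conditioned medium (median 0.13), and 12 had higher and 4 lower in mock medium (median 0.11). On replicates 1 and 2 alone the medians were 0.07 in conditioned medium and 0.24 in mock medium. CDK7 and CCNH, subunits of the CDK-activating kinase, were at 16.7 and 20.4 CPM in S14 in mock medium, against 9.11 and 12.8 CPM in EV. CDC37, a kinase co-chaperone, was at 287 CPM in S14 and 218 CPM in EV in mock medium. The ubiquitin ligase adaptor AMBRA1, which marks D-type cyclins for degradation and is named after its values were seen, was at 34.7 CPM in S14 and 39.5 CPM in EV in conditioned medium and at 46.7 and 42.9 CPM in mock medium. In the blocked fit AMBRA1 and the chaperone HSP90AB1, also named after its values were seen, were called lower in S14 in response to conditioned medium, 2 of the 16 beside 11.0% of all genes.

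By level per length, the order of the CCND1 groups was S14 in conditioned medium at 222 ± 42.6 TPM, S14 in mock medium at 213 ± 50.2 TPM, EV in conditioned medium at 62.5 ± 2.57 TPM, S5 in conditioned medium at 59.2 ± 27.9 TPM, EV in mock medium at 52.1 ± 6.25 TPM and S5 in mock medium at 45.1 ± 16.6 TPM (SD, n = 3). Neighbours in this order overlapped, except S14 in mock medium and EV in conditioned medium. CCND1 was second to CDKN1A among the 10 genes in both S14 groups, a place CDKN2C held in both S5 and both EV groups.

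The genes whose log2 CPM followed CCND1 most closely over the 18 libraries, of 9576 compared, were SPOCD1 (Pearson r = 0.987), CNIH3 (0.982), FTH1 (0.981), COL22A1 (0.979) and NIBAN2 (0.979). FTH1, the ferritin heavy chain, averaged 11778 CPM in S14, 3495 CPM in S5 and 3859 CPM in EV in conditioned medium. For CCND2 they were ZCCHC2 (0.960), BHLHE40 (0.954) and UBE2R2 (0.947), and for CDKN1A MAFF (0.979), EMP1 (0.975) and FERMT3 (0.972). The libraries share their lines and media, so these correlations describe a common pattern across 6 groups, with no test.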

How the data were processed

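Stranded mRNA libraries of 18 samples were grouped by their titles. The authors deposited 1 table of raw read counts and TPM per gene, made with HISAT2 on GRCh38 per the submitters' processing notes. No counting program, annotation or strand setting is given in the sources used, which leaves reads of antisense and overlapping genes impossible to tell apart. From the deposited counts, CPM after TMM scaling were computed, and edgeR 4.0.16 (quasi-likelihood, robust, R 4.3.3) was fitted to all 18 libraries after its default expression filter, with p-values adjusted by Benjamini and Hochberg's method over 17851 genes. The deposited TPM were used for shares and for levels between genes. Alternatives were DESeq2 1.42.0, other scalings, no filter, a replicate block and leaving out libraries. Deviations from group means correlated at 0.155 to 0.794 (median 0.391) in the 45 same-numbered pairs of libraries. In the 90 different-numbered pairs they ran from -0.676 to 0.510 (median -0.372). Same-numbered medians were 0.341, 0.365 and 0.530 for replicates 1, 2 and 3. Deviations within a group sum to 0, so these values do not show that replicates 1 and 2 are each paired. The labels do not say that a number marks a shared batch, so the main edgeR and DESeq2 fits held no replicate term. Numbers paired samples only in the replicate block and the counts of pairs. The 10 genes and all lists were chosen with earlier results of these data known. Named were all 10 genes, up to 4 called members of each list with the smallest p, and the genes most correlated with CCND1, CCND2 and CDKN1A (mean of at least 10 CPM, prior count 2). The test was checked on simulated counts. These had the same spread setting for every gene and no shift of replicate 3, so the check does not cover that shift. Positions come from GENCODE release 29, and promoters from RefSeq, GRCh38.p14.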

Additional observations from a re-analysis of the deposited data

How the results depend on the processing

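The tested counts of genes called stayed at 0 of 10 under median-of-ratios and upper-quartile scaling, DESeq2, no expression filter and a fit of the compared groups alone. The replicate block called 1 gene in the S14 response (CDKN2D), and CDK6 in the response averaged over lines; in the other tested comparisons it changed no call. Replicates 1 and 2 alone called 7 genes in the S14 response, 3 in S5, 1 in EV, 4 for S14 minus EV and 2 for S14 minus S5. Leaving out 1 library at a time gave 0 to 1 genes in the S14 response, the 1 being CDK6 without S14 mock replicate 3. For that fit the share of all genes called is not given. With replicates 1 and 2 alone CCND1 in S14 against S5 in mock medium was 1.90. As a share of raw counts, CCND1 made up 73.0% of the D-type cyclins in S14 in conditioned medium, 68.5% in S14 in mock medium and 35.1% in EV in mock medium. Estimates near 0 changed sign. CCND2 in the S5 response was -0.00591 under median-of-ratios scaling, -0.0102 in DESeq2, -0.00358 with no filter and -0.0411 with the replicate block, and ran from -0.42 to 0.33 with 1 library left out. Left-out libraries also turned the sign of the responses of CDKN1A in EV (-0.29 to 0.0347), in S5 (-0.33 to 0.0654) and in S14 (-0.0198 to 0.12), CDKN2D in EV (-0.0624 to 0.93) and in S5 (-0.71 to 1.31), CDKN2C in S5 (-0.12 to 0.55) and CCND1 in S14 (-0.0732 to 0.47). The response of CDK4 turned too, in EV (-0.0365 to 0.39), in S5 (-0.25 to 0.65) and in S14 (-0.0859 to 0.56). So did those of CDKN1C in every line, CCND3 in S5 and S14, and CDKN1B in EV and S5. Upper-quartile scaling moved the median of all genes to -0.12 in S14 against EV and -0.14 against S5 in mock medium, from -0.02 and -0.05. Counts of 0 to 27 for CDKN1C and 17 to 125 for CCND2 limit their precision, and 3 libraries a group limit that of all genes. The cause of these dependencies was not tested.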
